A study of Homo sapiens with 6 samples.

Results

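The antioxidant target genes of NRF2 described here were 10 genes found by symbol among the 20812 amplicons of the panel, 1 amplicon per gene: NQO1, HMOX1, GCLM, GCLC, TXNRD1, SRXN1, SLC7A11, AKR1B10, AKR1C1 and AKR1C2. They were measured in MCF10A, an established, non-tumorigenic human mammary epithelial line grown in MEBM medium, in 6 libraries with 2 libraries per group. The wt group was the untransfected line. The eGFP group carried the stably integrated plasmid pIRES2eGFP and served as control, and the GIRK1 group carried the same plasmid with the coding sequence of human GIRK1, a potassium channel subunit encoded by KCNJ3. Both transfected groups were selected with G418 and sorted on eGFP fluorescence, steps the wt cells did not go through, so each transfected line is 1 selected population and may differ from wt for that reason as well as for its transgene. The labels do not say that libraries of a group came from separate cultures, and p-values then measure only the spread between these libraries, which may be technical.

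NRF2, encoded by NFE2L2, is a transcription factor that the adaptor KEAP1 holds at low levels by handing it to a ubiquitin ligase. Oxidants and electrophiles modify KEAP1, NRF2 accumulates, pairs with a small MAF protein and binds antioxidant response elements near genes for glutathione synthesis, thioredoxin recycling, quinone reduction and haem breakdown. BACH1 competes for the same elements and is known above all as a repressor of HMOX1.

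The libraries differed in depth and in identity, and both facts bear on the values below. The totals ran from 2506120 to 16040556 reads, so that 3 reads corresponded to 0.187 to 1.20 RPM (reads of an amplicon scaled to a common library total). KCNJ3 had 217 and 355 RPM in the GIRK1 libraries and 0 reads in the eGFP libraries and wt replicate 2. The library labelled wt replicate 1 had 48 reads of KCNJ3 and carried the luminal genes ESR1, PGR, TFF1 and KRT19, which were at 0 reads in the other 5 libraries, while KRT14 and KRT17 were at 0 reads and KRT5 had 2. The 10 basal markers summed to 356 RPM there and to between 10193 and 18718 RPM in the other 5 libraries, and the 10 luminal markers summed to 18911 RPM against 531 to 1029 RPM. TP63 was at 0 reads in all 6 libraries. That library is therefore shown apart and enters no comparison but the alternative fit with all 6 libraries. The eGFP replicates were less alike than the GIRK1 replicates, with 1012 against 172 of 9212 well-covered genes (50 reads or more on average) differing 2-fold or more. The GIRK1 libraries also carry a tag in their deposited names that the other 4 do not. Should it mark a sequencing run, its part and that of GIRK1 cannot be told apart.

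The stretches that were read decide what a count can say, and 3 of them are shown because the results below turn on them. The amplicon of SLC7A11, the member that varied most among those with more than 100 reads in every compared library, joins exons 8 and 9 of 12 (GRCh38, minus strand, chr4:138183202-138183235 and chr4:138182326-138182393). The amplicon of GCLC joins exons 3 and 4 of 16 (minus strand, chr6:53520778-53520785 and chr6:53516129-53516222). That of TXNRD1 joins exons 3 and 4 of 17 of one transcript (plus strand, chr12:104258065-104258079 and chr12:104288931-104289012), and capitals mark the 15 bases from its exon 3. All 3 lie within coding sequence. They were read from the GENCODE v29 transcripts at the deposited positions and are shown for members whose GC count there equals the deposited one. This was so for 45.5% of the panel's paired amplicons, and for NQO1, HMOX1, GCLM, SRXN1, AKR1C1 and AKR1C2 it was not. The counts were also equal for AKR1B10, whose stretch is not printed.
SLC7A11: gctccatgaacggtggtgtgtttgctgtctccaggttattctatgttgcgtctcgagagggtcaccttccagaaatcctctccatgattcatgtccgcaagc
GCLC: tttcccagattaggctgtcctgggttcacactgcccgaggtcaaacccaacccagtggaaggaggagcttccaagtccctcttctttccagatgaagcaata
TXNRD1: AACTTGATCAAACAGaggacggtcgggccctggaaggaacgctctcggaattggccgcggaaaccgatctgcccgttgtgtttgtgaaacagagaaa

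The antioxidant response element is the site at which NRF2 is known to act, and its core TGACNNNGC was searched on both strands in RefSeq promoter windows (GRCh38.p14), each from 250 bases before to 50 bases after a gene start. The table held 8 windows for 7 members. HMOX1, SLC7A11 and AKR1B10 are not in it. Matches stood in 3 of the 8 windows and belonged to 2 genes, GCLM and TXNRD1, against 13.3% of all 35116 windows. Below, capitals mark the match with 25 bases on either side. The window of the first TXNRD1 start held a second match, on the reverse strand with its first base 8 bases before the start, which is not printed. The GCLM stretch is chr1:93909431-93909489 on the minus strand, and the TXNRD1 stretches are chr12:104215655-104215713 and chr12:104286905-104286963 on the plus strand. A match is a description of letters and not of binding. Elements outside these windows were not searched for, so a window without a match does not mean a gene without the element.
GCLM: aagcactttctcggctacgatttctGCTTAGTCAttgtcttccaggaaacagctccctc
TXNRD1, first start: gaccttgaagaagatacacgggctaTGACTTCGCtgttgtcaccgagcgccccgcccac
TXNRD1, second start: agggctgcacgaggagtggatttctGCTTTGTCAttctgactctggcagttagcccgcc

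No member passed the test between GIRK1 and eGFP. Of the 10 members, 7 had enough reads to be tested and 0 had an adjusted p below 0.05 (edgeR's quasi-likelihood test, adjusted by Benjamini-Hochberg over 11779 genes, fitted to the 5 libraries without wt replicate 1), against 1.6% of all genes tested. Of the 7, only AKR1C1 had an unadjusted p below 0.05, against 18.8% of all genes, and DESeq2 also called 0 members. Against wt replicate 2, GIRK1 gave 0 of 7 members called (0 unadjusted, 0 by DESeq2) and 0.229% of all genes. The eGFP control gave 0 of 7 (0 unadjusted, 0 by DESeq2), and 0.0% of all genes were called there (418 unadjusted, 5 by DESeq2). HMOX1 and AKR1C1 passed the filter on low counts only through eGFP replicate 1, where they were highest of the 5 libraries. TXNRD1, AKR1B10 and AKR1C2 had too few reads. The other 5 were NQO1, GCLM, GCLC, SRXN1 and SLC7A11. A 2-fold difference is 1 on the log2 scale. In this fit the 95% intervals of GIRK1 over eGFP for NQO1, GCLM, GCLC and SRXN1 all stayed inside it. That of GCLC did so only just, ending at 0.999, and the intervals of other settings were not compared with this limit.

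**Figure D1:**
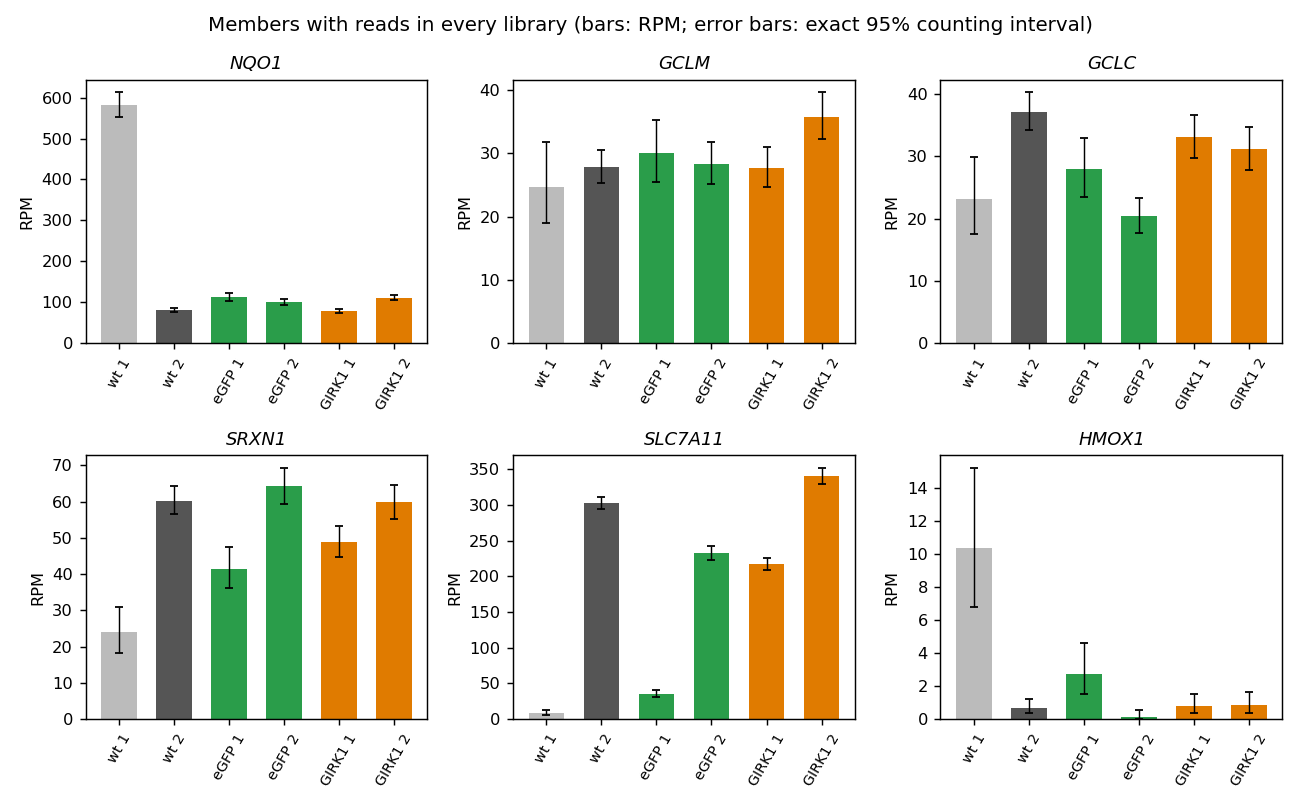
RPM (y axis) of the 6 members that had reads in every library, in each of the 6 libraries (x axis), with exact 95% counting intervals. NQO1 and HMOX1 are highest in wt replicate 1 (582 and 10.4 RPM), and SLC7A11 is low in wt replicate 1 and eGFP replicate 1 (8.38 and 35.7 RPM).

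SLC7A11, the subunit of the cystine-glutamate antiporter that brings in cystine for glutathione synthesis, spanned 9.54-fold over the 5 libraries, the widest range of the 5 members with more than 100 reads in each. It had 35.7 and 233 RPM in the eGFP replicates, 217 and 340 RPM in the GIRK1 replicates and 302 RPM in wt replicate 2. The eGFP replicates thus stood 6.52-fold apart, on 183 and 2380 reads, and eGFP replicate 2 lay between the 2 GIRK1 libraries. The other 4 libraries were within 1.57-fold of each other, and the lowest of them was 6.09-fold above eGFP replicate 1. The group means were 134 ± 139.2 RPM for eGFP and 279 ± 87.1 RPM for GIRK1 (SD, n = 2). The log2 fold change of GIRK1 over eGFP was 1.05 (SE 0.71, 95% interval -0.62 to 2.72, adjusted p = 0.448 by edgeR).

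That value depended on which eGFP library was kept. Without eGFP replicate 2, leaving eGFP replicate 1 as the only control, the log2 fold change was 2.87 (adjusted p = 7.34e-05). Without eGFP replicate 1 it was 0.28 and did not pass. The same held for eGFP over wt replicate 2, where SLC7A11 was at -1.14 with both eGFP libraries (adjusted p = 0.953), at -2.96 without eGFP replicate 2 (adjusted p = 0.000347) and at -0.38 without eGFP replicate 1. In these fits the lone library of a group is assumed to vary like the others. GIRK1 over wt replicate 2 was -0.09 (95% interval -2.10 to 1.92). With the replicate number as a block, which keeps both eGFP libraries, GIRK1 over eGFP was 1.51 and did not pass (adjusted p = 0.0872 by edgeR). It was 1.36 without GIRK1 replicate 1 and 0.68 without GIRK1 replicate 2.

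Of the genes around cystine, 2 were looked at after their values were seen, because they were also lowest of the 5 libraries in eGFP replicate 1. SLC3A2, the heavy chain that anchors the antiporter in the membrane, had 472 and 1030 RPM in the eGFP replicates, 1721 and 1708 RPM in the GIRK1 replicates and 1193 RPM in wt replicate 2. Both GIRK1 libraries lay above both eGFP libraries and above wt replicate 2, with a log2 fold change over eGFP of 1.17 (SE 0.34, adjusted p = 0.144). Without eGFP replicate 1 the log2 fold change was 0.75, and without eGFP replicate 2 it was 1.76. These fits leave out the spread between the eGFP replicates, and whether SLC3A2 passed in them is not reported here. SLC3A2 passed with DESeq2 (adjusted p = 0.0160) and with no filter on low counts (adjusted p = 0.0196). It did not pass with the replicate number as a block (adjusted p = 0.0702 by edgeR), with all 6 libraries (0.940) or between GIRK1 and wt replicate 2 (0.55, adjusted p = 0.854). Without GIRK1 replicate 1 the log2 fold change over eGFP was 1.18, and without GIRK1 replicate 2 it was 1.16, each on 1 GIRK1 library. CHAC1, an enzyme that breaks down glutathione, had 1.76 and 49.5 RPM in the eGFP replicates, 33.3 and 62.0 RPM in the GIRK1 replicates and 60.8 RPM in wt replicate 2. The eGFP replicates of CHAC1 stood 28.2-fold apart, on 9 and 507 reads, and its log2 fold change was 0.86 (SE 0.99, adjusted p = 0.668). With the replicate number as a block it was 1.67 and did not pass (adjusted p = 0.191 by edgeR). In bulk RNA, fewer cells of a kind and less RNA per cell cannot be told apart, and the depth of eGFP replicate 1, the lowest of the 5 at 5126930 reads, was not tested for a part in its low values.

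**Figure D2:**
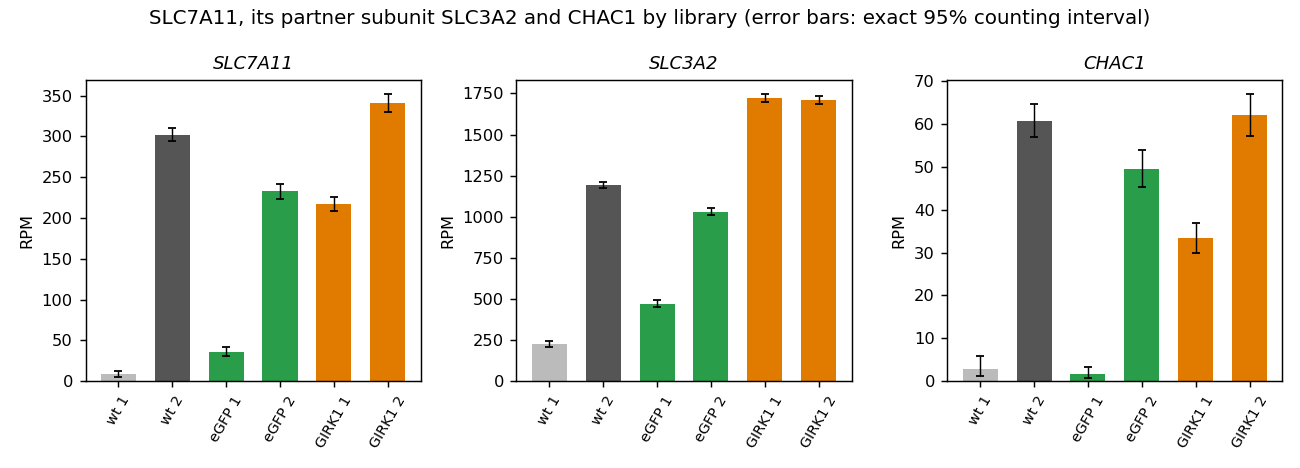
RPM (y axis) of SLC7A11, SLC3A2 and CHAC1 in each library (x axis), with exact 95% counting intervals. In eGFP replicate 1 the genes had 35.7, 472 and 1.76 RPM, below the other 4 libraries that were compared, and SLC3A2 alone has both GIRK1 libraries above both eGFP libraries.

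The subunits of glutamate-cysteine ligase, which makes the first product on the way to glutathione, were measured on fewer reads than SLC7A11 but varied less. GCLC, the catalytic subunit, had 27.9 and 20.4 RPM in the eGFP replicates, 33.0 and 31.1 RPM in the GIRK1 replicates and 37.2 RPM in wt replicate 2. It was the only member with both GIRK1 libraries above both eGFP libraries, as were 29.2% of all genes tested. The log2 fold change was 0.37 (SE 0.27, 95% interval -0.26 to 0.999, adjusted p = 0.481 by edgeR), and wt replicate 2, the other control, lay above both GIRK1 libraries. Against it, GIRK1 was at -0.19 and eGFP at -0.56 (adjusted p = 0.940 and 0.953).

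GCLM, the modifier subunit, had the narrowest range of the same 5 members. It had 30.04 and 28.3 RPM in the eGFP replicates, 27.6 and 35.8 RPM in the GIRK1 replicates and 27.7 RPM in wt replicate 2, a 1.29-fold range over 5 libraries. The groups overlapped, and the log2 fold change of GIRK1 over eGFP was 0.08 (SE 0.25, 95% interval -0.51 to 0.67, adjusted p = 0.880 by edgeR). Its sign depended on the libraries used, from -0.14 to 0.27 when single libraries were left out. Wt replicate 1, otherwise unlike the rest, had 24.7 RPM of GCLM on 62 reads (95% interval 19.0 to 31.7) and 23.1 RPM of GCLC (17.6 to 29.9). Such intervals and the floors of 3 reads take in counting error alone, because reads from PCR do not stand for separate molecules.

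SRXN1, or sulfiredoxin, which repairs over-oxidised peroxiredoxins, had 41.5 and 64.2 RPM in the eGFP replicates, 48.9 and 59.8 RPM in the GIRK1 replicates and 60.3 RPM in wt replicate 2. The GIRK1 libraries lay between the eGFP libraries. The log2 fold change was 0.01 (SE 0.26, 95% interval -0.60 to 0.61, adjusted p = 0.992 by edgeR), with a sign that turned under DESeq2's size factors and test (-0.0031 and -0.0027). Like SLC7A11, SRXN1 was lowest of the 5 libraries in eGFP replicate 1, but by 1.55-fold against eGFP replicate 2. Wt replicate 1 had 23.9 RPM.

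NQO1, a quinone reductase and a widely used readout of NRF2, had 114 and 101 RPM in the eGFP replicates, 79.0 and 112 RPM in the GIRK1 replicates and 81.4 RPM in wt replicate 2. The 5 libraries spanned 1.44-fold and the groups overlapped. The log2 fold change of GIRK1 over eGFP was -0.21 (SE 0.25, 95% interval -0.81 to 0.39, adjusted p = 0.682 by edgeR). Against wt replicate 2 it was 0.25 for GIRK1 and 0.46 for eGFP (adjusted p = 0.929 and 0.953). The GIRK1 replicates stood 1.42-fold apart from each other.

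HMOX1, or haem oxygenase, which breaks haem down to biliverdin, iron and carbon monoxide, was close to the limit of detection. It had 14 reads (2.73 RPM) and 1 read (0.0980 RPM) in the eGFP replicates, 9 reads in each GIRK1 replicate (0.810 and 0.870 RPM) and 11 reads (0.686 RPM) in wt replicate 2. The eGFP replicates enclosed all others. All 14 reads in eGFP replicate 1 were on the reverse strand, as were 49 of the 70 HMOX1 reads over the 6 libraries. Summed over replicates, eGFP had 15 reads and GIRK1 18, a ratio of eGFP over GIRK1 of 1.16 with an exact counting interval from 0.546 to 2.45 that leaves out the spread between replicates. The fitted log2 fold change of -0.60 (SE 1.23, 95% interval -3.51 to 2.30) had an adjusted p of 0.816 by edgeR. Differences within that wider interval were not resolved by these libraries.

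**Figure D3:**
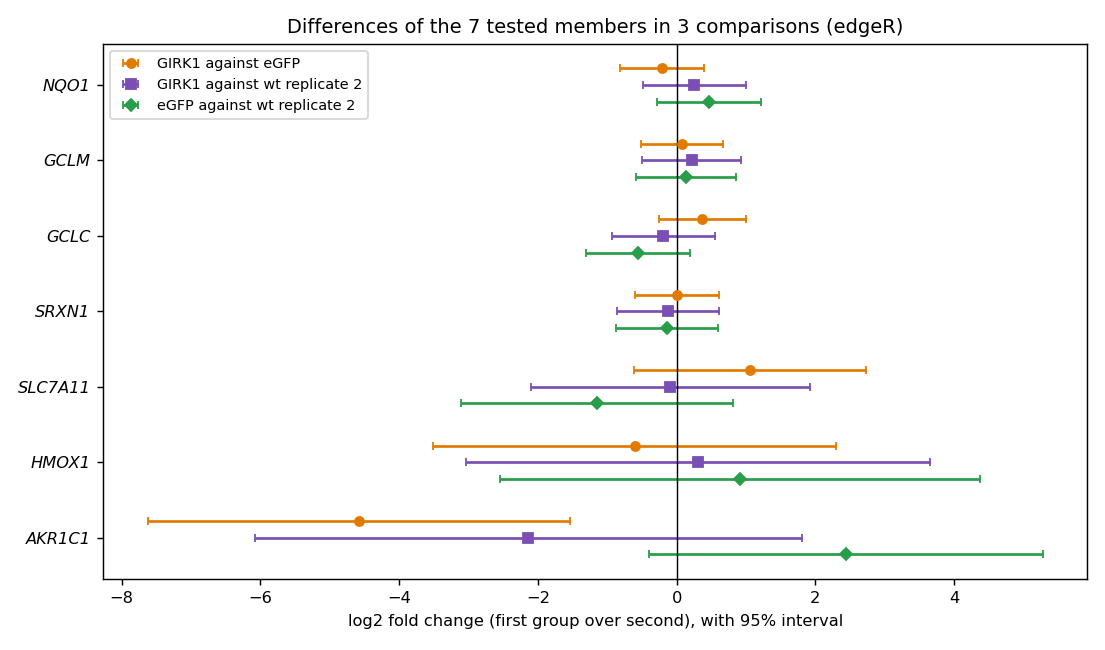
Fitted log2 fold changes with 95% intervals (x axis) of the 7 members tested (y axis) for GIRK1 over eGFP, GIRK1 over wt replicate 2 and eGFP over wt replicate 2 (edgeR). NQO1, GCLM, GCLC and SRXN1 have narrow intervals that include 0, SLC7A11 and HMOX1 have wide ones, and AKR1C1, with 24 reads in all, lies at -4.58 for GIRK1 over eGFP and did not pass adjustment. The 3 comparisons share libraries.

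TXNRD1, cytosolic thioredoxin reductase, which keeps thioredoxin reduced, had 0 reads in all 6 libraries. The exact 95% interval of 0 reads reaches 0.230 RPM in wt replicate 2, the deepest library, and 1.47 RPM in wt replicate 1, the shallowest. The count speaks for the amplicon and not for the gene. The stretch printed above was found whole in 2 of the 24 GENCODE v29 transcripts of TXNRD1 (2 of the 19 protein-coding ones), whereas its 82 bases from exon 4 alone were found in 17. The gene's transcripts that do not join the capitals to the rest do not hold the amplicon and were not measured by it. The partner TXN, thioredoxin itself, was well covered, with 502 and 364 RPM in the eGFP replicates, 242 and 239 RPM in the GIRK1 replicates and 333 RPM in wt replicate 2. It was lower in both GIRK1 libraries at a log2 fold change of -0.90 (SE 0.26) that did not pass (adjusted p = 0.141 by edgeR). TXN was named after its values were seen.

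The aldo-keto reductases, which reduce aldehydes, ketones and steroids, were at the floor. AKR1B10 had 0 and 2 reads in the eGFP replicates, 1 read in each GIRK1 replicate, 0 in wt replicate 2 and 1 in wt replicate 1, at or under 3 reads everywhere, so no fold is given. AKR1C1 had 10 and 9 reads in the eGFP replicates, 0 and 1 in the GIRK1 replicates, 4 in wt replicate 2 and 0 in wt replicate 1. AKR1C2 had 3 and 6 reads in the eGFP replicates, 1 and 0 in the GIRK1 replicates, 2 in wt replicate 2 and 4 in wt replicate 1.

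For both AKR1C members the GIRK1 libraries lay below the eGFP libraries in RPM, as did 24.8% of all genes tested. Pooled over replicates, the ratio of eGFP over GIRK1 was 26.5 for AKR1C1 (19 against 1 read, exact counting interval 4.22 to 1103) and 12.6 for AKR1C2 (9 against 1 read, 1.74 to 551). The edgeR test of AKR1C1 gave an unadjusted p of 0.00929 and an adjusted p of 0.140, and its fitted fold depends on the prior count. Of the other fits it passed in that without eGFP replicate 2 (adjusted p = 0.0191), which keeps as its only eGFP control the library that carried AKR1C1 through the filter, so that this call is no support. It fell under the filter in the fit of only the eGFP and GIRK1 libraries.

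These reads differ from those of the other members in a second way. Reads that cover an amplicon over its length are deposited beside all reads, and they made up 90.8% to 96.0% for NQO1, GCLM, GCLC, SRXN1, SLC7A11 and HMOX1. For AKR1C1 it was 3 of 24 reads (12.5%) and for AKR1C2 3 of 16 reads (18.8%). Only 90 of the 13099 amplicons with at least 10 reads (0.687%) were under 20%, where the median was 93.7%. The forward strand held 19 of the 24 AKR1C1 reads and 14 of the 16 AKR1C2 reads. Uneven strands were not theirs alone, as the reverse strand held 49 of the 70 HMOX1 reads. The coding sequences of AKR1C1 and AKR1C2 were identical at 950 of 969 bases (98.0%), and 91.4% and 91.0% of their bases were identical to AKR1C3, whose own amplicon had 1098 reads with 1035 covering. How reads shared by close copies were assigned is not stated, so the AKR1C1 and AKR1C2 counts are uncertain. On covering reads alone AKR1C1 was not tested.

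**Figure D4:**
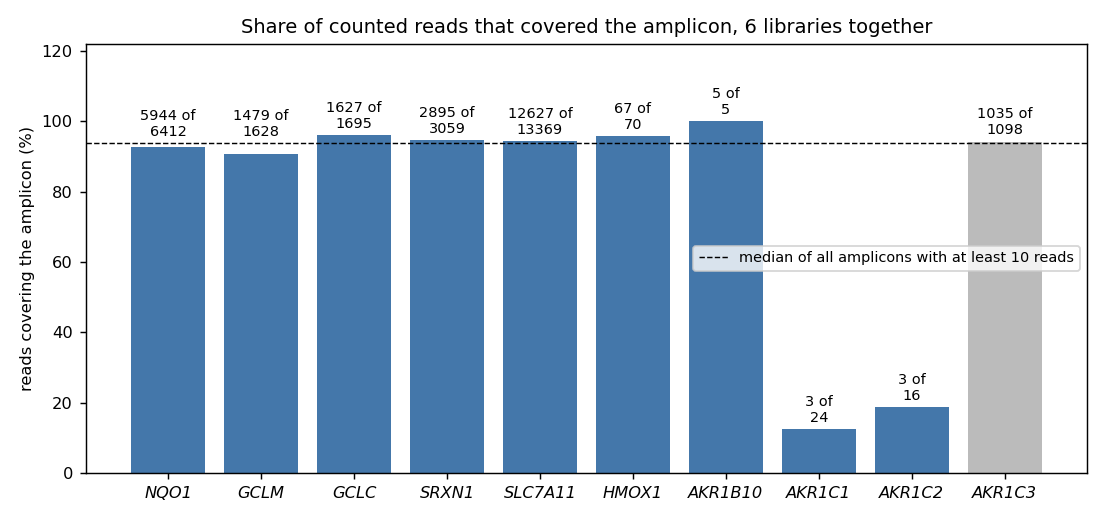
Share of counted reads that covered the amplicon (y axis, percent) for 9 members and AKR1C3 in grey (x axis), summed over 6 libraries, with the numbers of reads above each bar. AKR1C1 and AKR1C2 stand at 12.5% and 18.8%, below the median of 93.7% over all amplicons with at least 10 reads. TXNRD1 had no reads and is left out.

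AKR1C3 itself, looked at after its values were seen, is a prostaglandin and steroid reductase and also a known NRF2 target. It had 42.3 and 29.8 RPM in the eGFP replicates, 15.0 and 5.41 RPM in the GIRK1 replicates and 16.6 RPM in wt replicate 2. Both GIRK1 libraries lay below both eGFP libraries and below wt replicate 2, which was nearer to GIRK1 replicate 1 than to either eGFP library. The log2 fold change was -1.86 (SE 0.48, adjusted p = 0.117 by edgeR). It passed with DESeq2 (adjusted p = 0.00288), with no filter on low counts (0.00484), with the replicate number as a block (0.00972) and without single libraries (0.0214 without eGFP replicate 1, 0.00350 without eGFP replicate 2, 0.00877 without GIRK1 replicate 1). It did not pass without GIRK1 replicate 2 (-1.32, adjusted p = 0.324), with all 6 libraries (adjusted p = 0.934) or between GIRK1 and wt replicate 2 (-0.68, adjusted p = 0.856).

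By the fold rule of the study, mean RPM 2-fold apart and the SD of each group under 0.7 of its mean (the coefficient of variation), 0 of 10 members were changed, against 6.29% of all 20812 amplicons. These include amplicons without reads and 10 for added control RNAs. As applied here, the rule did not count genes at 0 reads throughout a group, such as KCNJ3 in eGFP. Without the limit on the coefficient, 3 members were 2-fold apart, SLC7A11 higher and AKR1C1 and AKR1C2 lower in GIRK1, against 12.0% of all genes. The coefficients that kept them out were 1.04 for SLC7A11 in eGFP and 1.41 for both AKR1C members in GIRK1.

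The regulators of NRF2 gave no call either. Of 12 regulators, 11 were tested and 0 passed by edgeR (3 unadjusted, where 18.8% of all genes passed), with a median log2 fold change of -0.09 beside 0.02 for all genes tested. NFE2L2, the gene of NRF2, had 64.8 and 131 RPM in the eGFP replicates, 116 and 133 RPM in the GIRK1 replicates and 136 RPM in wt replicate 2, a log2 fold change of 0.32 (SE 0.31, adjusted p = 0.610). It too was lowest in eGFP replicate 1, and the sign of its difference turned without that library (-0.0518). Without eGFP replicate 2 the log2 fold change was 0.84, on 1 eGFP library, and whether NFE2L2 passed there is not reported here.

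KEAP1 had 67.7 and 46.2 RPM in the eGFP replicates, 53.5 and 41.7 RPM in the GIRK1 replicates and 49.1 RPM in wt replicate 2, and BACH1 had 17.6 and 10.9, 13.2 and 6.96, and 11.5 RPM. Neither differed beyond its spread, with log2 fold changes of -0.31 (SE 0.28, adjusted p = 0.589) and -0.53 (SE 0.41, adjusted p = 0.514), and for KEAP1 the sign turned without eGFP replicate 1 (0.0596). SQSTM1, whose protein p62 sequesters KEAP1 and is itself an NRF2 target, had 596 and 1078 RPM in the eGFP replicates, 1644 and 1475 RPM in the GIRK1 replicates and 1026 RPM in wt replicate 2. Both GIRK1 libraries lay above the 3 controls, with a log2 fold change of 0.87 over eGFP (SE 0.28, adjusted p = 0.174). SQSTM1 passed in no fit with both eGFP libraries. Its log2 fold change was 0.55 without eGFP replicate 1 and 1.28 without eGFP replicate 2. Whether SQSTM1 passed in these fits on 1 eGFP library is not reported here.

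PIR was the one gene of the related lists that passed between GIRK1 and eGFP. It encodes pirin, an iron-binding nuclear protein and a known NRF2 target, and lies on the X chromosome (GRCh38, 15384799 to 15493564, minus strand). PIR had 24.2 and 25.2 RPM in the eGFP replicates, 8.91 and 9.38 RPM in the GIRK1 replicates, 18.1 RPM in wt replicate 2 and 27.1 RPM in wt replicate 1. The 2 GIRK1 libraries lay below every other library. The log2 fold change over eGFP was -1.47 (SE 0.25, adjusted p = 0.0447), and that over wt replicate 2 was -0.96 (SE 0.29), which did not pass (adjusted p = 0.460). The call was lost without GIRK1 replicate 1 (-1.42, adjusted p = 0.231), without GIRK1 replicate 2 (-1.52, adjusted p = 0.206), with at least 10 reads required in every library (-1.45, adjusted p = 0.0544) and with all 6 libraries in the fit (-1.46, adjusted p = 0.868).

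The other 21 tested of the 25 further NRF2 targets did not pass. With PIR, 16 were below 0 and 6 above, and the list's median log2 fold change was -0.26, ranging from -1.86 to 0.70, beside a median of 0.02 for all genes. At an unadjusted p below 0.05 there were 6 lower and 1 higher of the 22, beside 1260 lower and 958 higher of all 11779 genes, of which 5737 were below 0 and 6034 above. The 12 genes of glutathione and cystine handling had 10 tested and 0 called (1 higher and 1 lower unadjusted), with a median of -0.14. The 12 other antioxidant enzymes were all tested with 0 called (2 lower unadjusted) and a median of -0.18. DESeq2 and the other settings were recomputed for named genes and members only, not for these counts.

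Against wt replicate 2 the lists were nearer to 0 calls still, with 0 genes of any of them called by edgeR for GIRK1 or for eGFP (of the further targets, 2 higher and 2 lower unadjusted for GIRK1 and 2 higher for eGFP). The median of the further targets was -0.25 for GIRK1 over wt replicate 2 and 0.20 for eGFP over wt replicate 2, so that by these medians wt replicate 2 stood between the transfected lines. The comparisons share libraries and are set side by side only. Of the 9 basal markers tested between GIRK1 and eGFP, 7 were below 0 and 2 above, with a median log2 fold change of -0.92. KRT17 was called higher in GIRK1 and 2 were called lower, LAMB3 among them. The basal sum was 12533 and 18718 RPM in eGFP and 10975 and 11430 RPM in GIRK1. The part of that difference in the NRF2 lists was not tested.

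**Figure D5:**
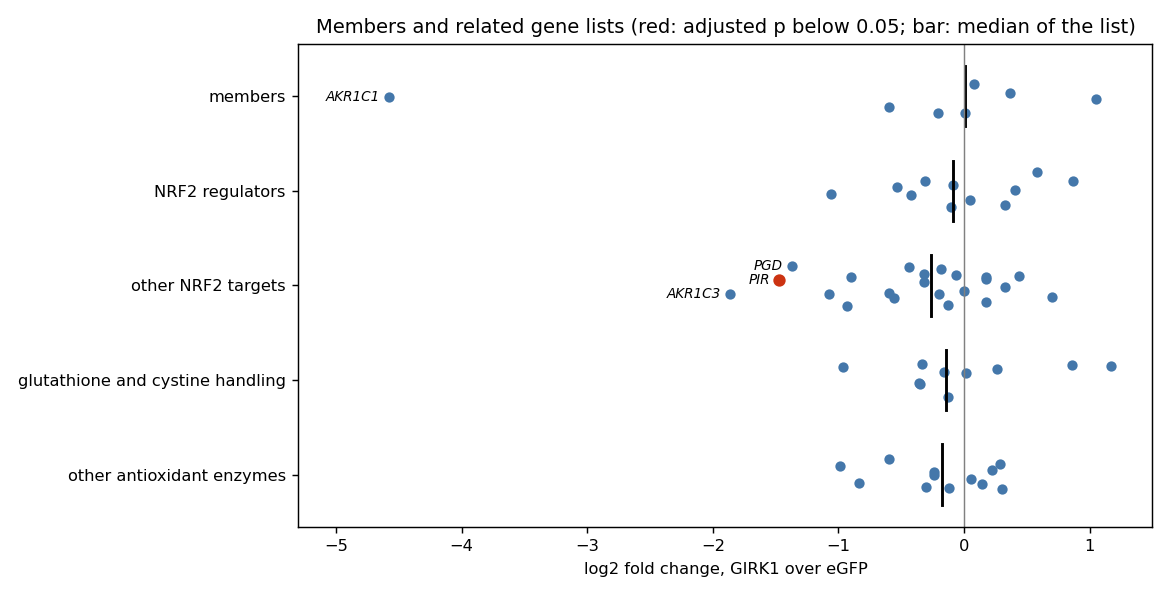
Log2 fold change of GIRK1 over eGFP (x axis) for every tested gene of the 5 lists (y axis), with the median of each list as a bar and genes with an adjusted p below 0.05 in red. PIR at -1.47 is the only red point, and the 5 medians lie between -0.26 and 0.01.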

How the data were processed

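RNA was read with the Ion AmpliSeq Transcriptome panel. The authors mapped reads to the AmpliSeq_Transcriptome_21K.v1 reference (Ion Torrent suite). Per amplicon they deposited whole-number counts of reads (all, forward, reverse and covering). They also deposited RPM, which equals counts scaled to the library total. Deposited amplicon length, position and GC bases were also used. Groups came from the labels.

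Counts were tested with edgeR 4.0.16 in R 4.3.3 (TMM, filterByExpr, glmQLFit and glmQLFTest on 3 group means, Benjamini-Hochberg, threshold 0.05) on the 5 libraries without wt replicate 1. The lone wt library was assumed to vary like the others. Standard errors were derived from the F value. RPM intervals are exact (Clopper-Pearson, 95%), and ratios of pooled reads have exact conditional intervals.

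The members, lists and rule for named genes (all members, 4 regulators, every list gene called between GIRK1 and eGFP) were chosen with earlier results of these data known. Alternatives were other normalizations, filters, libraries, the replicate block, covering reads, DESeq2 1.42.0 and leaving out replicates. Gene positions are from GENCODE v29 (GRCh38). Not every called marker gene is reported here.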

Additional observations from a re-analysis of the deposited data

Results flagged for a closer look

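In the library labelled wt replicate 1, which enters no comparison of the report, 2 members had an exact 95% interval that lay wholly above the level of every control library. NQO1 had 582 RPM there (1459 reads, exact 95% interval 553 to 613), against at most 114 RPM in wt replicate 2 and the eGFP libraries, and 7.16-fold more than in wt replicate 2. HMOX1 had 10.4 RPM there (26 reads, 6.78 to 15.2), against at most 2.73 RPM. AKR1C2 (1.596 RPM, 4 reads) and AKR1B10 (0.399 RPM, 1 read) were also higher there than in the controls, but their intervals reached down to 0.435 and 0.0101 RPM. The same library had 48 reads of KCNJ3 and the luminal genes given above.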

How the results depend on the processing

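Between GIRK1 and eGFP, 188 genes were called, and 865 with no filter on low counts, 107 with at least 10 reads in every library, 677 by DESeq2 and 0 with all 6 libraries (606 unadjusted). Leaving out single libraries gave 158 to 2997, with 973 without eGFP replicate 1 and 2997 without eGFP replicate 2. GIRK1 against wt replicate 2 gave 27, with 133, 16, 126 and 0 (648 unadjusted) under the same settings and 34 to 576 without single libraries (576 without eGFP replicate 1, 449 without eGFP replicate 2, 64 without GIRK1 replicate 1). The eGFP control against wt replicate 2 gave 0, with 6 unfiltered, 5 by DESeq2 and 5 to 1268 without single libraries (6 without eGFP replicate 1, 1268 without eGFP replicate 2, 5 without either GIRK1 replicate). Members called were 0 throughout, except without eGFP replicate 2, where SLC7A11 and AKR1C1 passed against eGFP (range 0 to 2) and SLC7A11 between eGFP and wt replicate 2 (range 0 to 1). The fold rule gave 3 members without its limit on the coefficient and 0 otherwise. The cause was not tested.

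Signs turned in 25 of 260 recomputed member values. With all 6 libraries, where both wt libraries form 1 group, GIRK1 over wt gave 0.14 for GCLC, -2.45 for HMOX1, -1.67 for NQO1, 0.87 for SLC7A11 and 0.41 for SRXN1, and eGFP over wt gave -1.76 for HMOX1, -1.47 for NQO1 and 0.39 for SRXN1. DESeq2's size factors and test gave -0.0031 and -0.0027 for SRXN1 in GIRK1 over eGFP. Without single libraries, GIRK1 over eGFP ranged from -0.50 to 0.0342 for NQO1, -0.14 to 0.27 for GCLM, -0.22 to 0.29 for SRXN1, -0.0518 to 0.84 for NFE2L2, -0.61 to 0.0596 for KEAP1 and -0.033 to 4.65 for CHAC1. GIRK1 over wt replicate 2 ranged from -0.0396 to 0.50 for NQO1, -0.0018 to 0.41 for GCLM, -0.47 to 0.21 for SLC7A11 and -0.30 to 0.0281 for SRXN1, and eGFP over wt replicate 2 from -0.42 to 0.0906 for SRXN1.

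Replicate differences correlated across 9212 genes at 0.195 (eGFP, GIRK1), 0.159 (eGFP, wt) and 0.031 (GIRK1, wt). The wt values rest on wt replicate 1, and these correlations do not settle whether the replicate numbers pair the libraries. The replicate block gave 549, 77 and 1 genes in the 3 comparisons and 0 members in each. With the block, GIRK1 over wt replicate 2 was -0.53 for HMOX1, 0.74 for SLC7A11 and 0.0721 for SRXN1, and eGFP over wt replicate 2 was -0.34 for HMOX1 and 0.0483 for SRXN1. Few reads limit what can be said of HMOX1 and the aldo-keto reductases, and the TXNRD1 amplicon had none. The part of depth in this was not tested.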

Other observations

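Some redox genes outside the members were present in one kind of library only. GSTP1, a glutathione transferase, had 0 reads in wt replicate 1 and 2894 to 3816 RPM in the other 5 libraries, and GPX1, a glutathione peroxidase, had 0 reads there and 931 to 1303 RPM in the others. GSTM3 and GPX2 went the other way, with 129 and 12.4 RPM in wt replicate 1 and 0 reads in the other 5. These genes were chosen after their values were seen and have no test, as wt replicate 1 is a single library.

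PRDX1, a peroxiredoxin of most cells and an NRF2 target, had 0 reads in 5 libraries and 1 read in GIRK1 replicate 2. That count is of 1 amplicon, and unlike for TXNRD1, which transcripts of PRDX1 hold it was not examined. FTH1, the ferritin heavy chain, had 10678 and 11292 RPM in the eGFP replicates, 14133 and 14128 RPM in the GIRK1 replicates, 11750 RPM in wt replicate 2 and 2727 RPM in wt replicate 1. Its log2 fold change of GIRK1 over eGFP was 0.32 (SE 0.19), which did not pass (adjusted p = 0.397 by edgeR).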
